A study of Mus musculus with 16 samples.

Results

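The 5 lysyl oxidase genes (Lox and Loxl1 to Loxl4) and the 3 lysyl hydroxylase genes (Plod1 to Plod3) were read in mouse embryonic fibroblasts with and without the chromatin protein gene Hmgb1. They were chosen by name. Every probe that the probe table assigns to one of the 8 symbols was taken, which gave 8 probes, 1 for each gene, of the 25697 probes and 16593 named genes on the array. All 8 probes passed the detection filter and were tested.

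Both families modify lysine residues in collagen. Lysyl hydroxylases act inside the cell, in the endoplasmic reticulum, where they hydroxylate lysines of procollagen chains and so prepare sites for sugar attachment and for stable cross-links. Lysyl oxidases are secreted, copper-dependent amine oxidases that turn lysines and hydroxylysines of collagen and elastin into reactive aldehydes, from which the covalent cross-links of fibres form. Fibroblasts are a main source of both families.

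The study hybridised total RNA of wild-type (Wt) and Hmgb1-/- (KO) fibroblasts to 16 bead arrays. The cells were cycling (3 Wt and 3 KO arrays), synchronised in G1 (3 and 3) or synchronised in S phase (2 and 2). Each Wt and KO pair came from embryos of 1 cross between heterozygous parents, with 3 mothers in all, and the cells were grown for at most 3 passages. The labels give the KO as Hmgb1-/- and name no promoter or Cre, and the method of synchronisation, the strain and the age of the embryos are not given in the sources used here.

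The arrays had mean intensities between 393.8 and 776.1. Between 9970 and 12354 probes (38.8% to 48.08%) were detected on an array, which means a detection p-value under 0.01. KO_G1 replicate 1 and Wt_cycling replicate 3 are called below the 2 arrays that stood apart. Their lowest correlation to an array of their own group was 0.8812 and 0.9414. KO_G1 replicate 2 and Wt_cycling replicate 2 had the same lowest values, so these alone do not single out the 2 arrays. The lowest mean intensity, 393.8, was that of KO_G1 replicate 1. Wt_cycling replicate 3 had a mean intensity of 612.9 and 44.8% of probes detected, both within the range of the other arrays. For that array the label is only a name. The 2 arrays of each S group correlated at 0.9944 or above. The Hmgb1 probe was detected on 1 of 16 arrays and could not check the genotypes. All 7 fibroblast markers on the array were detected on 16 arrays. Of the 5 endothelial markers, Pecam1, Cdh5 and Kdr were detected on none, Tek on 2 and Eng on 14. Of the 4 macrophage markers on the array, Adgre1 and Lyz2 were detected on all arrays, Tyrobp on 15 and Ptprc on 8. The mean log2 level of 10 replication genes was 7.21 to 7.76 on the G1 arrays against 8.31 to 8.89 on the others. In bulk RNA, a change in the number of cells of a type and a change of RNA per cell cannot be told apart.

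Values below are log2 normalized intensities, and a difference of 1 is a doubling. They compare 1 probe between groups, since intensities of different probes depend on the probe and cannot be ranked against each other. Lox, Loxl1, Loxl2 and the 3 Plod probes were detected on 16 of 16 arrays. The Loxl3 probe was detected on 14 and the Loxl4 probe on 12, and both lay close to the background throughout.

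**Figure D1:**
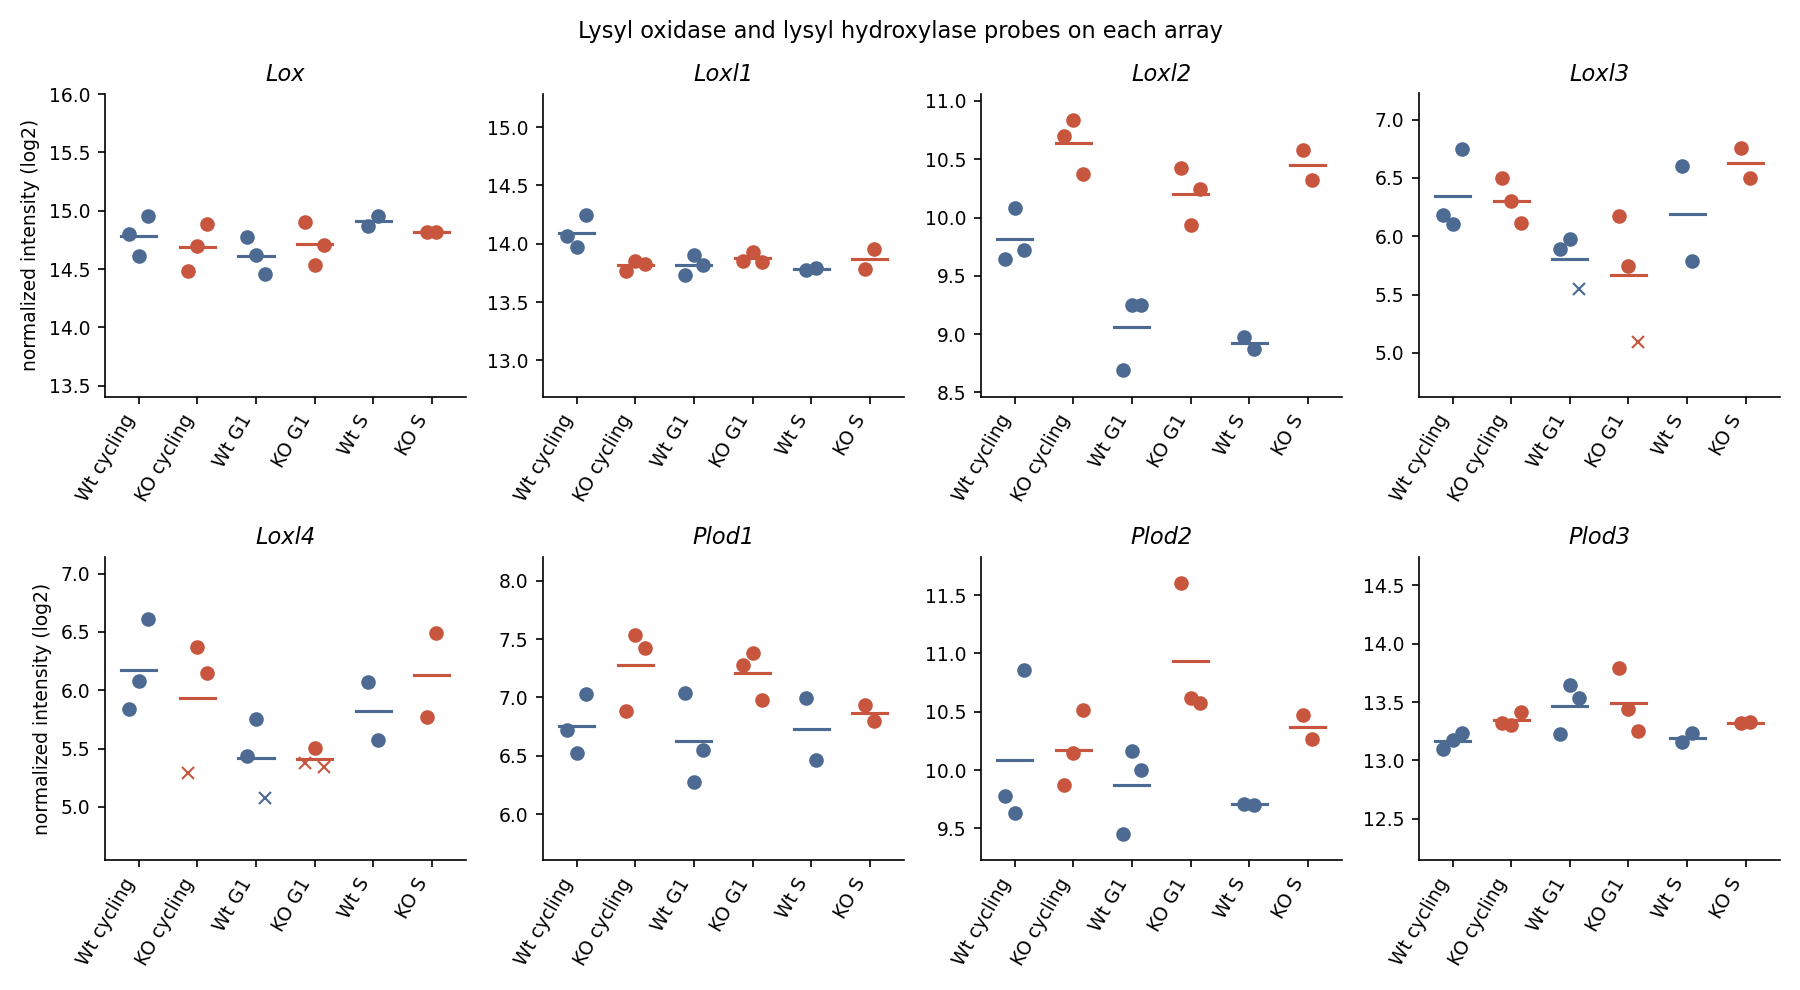
Log2 normalized intensity (y axis) of the 8 probes on each of the 16 arrays, by group (x axis), with Wt in blue and KO in red. Points are detected values, crosses are values not detected, lines are group means, and all panels span the same number of log2 units. Only for Loxl2 do all KO arrays lie above all Wt arrays of the same phase in each of the 3 phases. The share of all probes apart in this way was not counted.

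Loxl2, which encodes a lysyl oxidase with scavenger receptor domains that acts on basement membrane and fibrillar collagen, was higher in KO cells in every phase. In cycling cells its level was 9.65, 10.08 and 9.72 on the Wt arrays and 10.70, 10.83 and 10.38 on the KO arrays. In G1 it was 8.69, 9.25 and 9.25 in Wt against 10.42, 9.94 and 10.24 in KO. In S it was 8.97 and 8.87 in Wt against 10.58 and 10.32 in KO. Within no phase did the Wt and KO arrays overlap, and the KO array was the higher one in 8 of 8 pairs. These pairs come from 3 mothers, so they are not 8 independent pairs. Groups were also apart for Lox, Plod2 and Plod3 in S, for Plod2 in G1, and for Loxl1 and Plod3 in cycling cells. How many of all tested probes were apart in a phase was not counted.

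Averaged over the 3 phases, Loxl2 rose by 1.16 ± 0.13 log2 units in KO cells (SE; 2.24-fold; 95% interval 0.88 to 1.45; adjusted p = 0.000321, limma; 8 Wt and 8 KO arrays from at most 3 lines each). It was the 1 member called of 8, where 2.06% of all 12078 tested probes were called, and it held place 22 of these when ordered by p-value. The differences within the 8 pairs ran from 0.66 to 1.73. The call held with each pair as a block (adjusted p = 0.00208, limma) and without the 2 arrays that stood apart (1.12, adjusted p = 0.000666, limma).

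Phase by phase, the Loxl2 difference was 0.82 ± 0.22 in cycling cells (95% interval 0.36 to 1.28), which did not pass (adjusted p = 0.175, limma). No member was called there, where 0.315% of all probes were, and 1 of the 8 had an unadjusted p under 0.05, near the share of 10.4% over all probes. In G1 Loxl2 rose by 1.14 ± 0.22 (2.20-fold, adjusted p = 0.0465, limma), as 1 of 8 members against 0.29% of all probes. An unadjusted p under 0.05 was found there for 3 of the 8 (Loxl2, Plod1 and Plod2), against 9.09% of all probes. In S Loxl2 rose by 1.53 ± 0.26 (2.89-fold, adjusted p = 0.0266, limma), again as 1 of 8 members, against 0.232% of all probes. It was also the 1 member with an unadjusted p under 0.05 in S, against 5.31% of all probes. With each pair as a block, neither phase kept its call, with adjusted p = 0.0735 in G1 and 0.0607 in S by limma. The single call in G1 was lost whichever array of its groups was left out, and so was that in S, with adjusted p from 0.0694 to 0.145 and from 0.250 to 0.524 by limma.

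Each Wt and KO pair shared a slide. All cycling arrays and the G1 pair numbered 3 lay on slide 1, and Loxl2 differed by 0.997 in that G1 pair. The G1 pairs on slide 2 differed by 1.73 and 0.68, and the S pairs, also on slide 2, by 1.61 and 1.45. Slide 1 alone leaves 1 Wt and 1 KO array in G1, a difference of 0.99 that is given without a test. Fitted on slide 2 alone, with 2 Wt and 2 KO arrays in G1, the difference was 1.20 (adjusted p = 0.642, limma). The growth of the estimate from cycling to G1 to S was not itself called. The genotype effect in G1 exceeded that in cycling cells by 0.32 ± 0.30 (adjusted p = 0.669, limma), and that in S exceeded that in G1 by 0.39 ± 0.34 (adjusted p = 1, limma).

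Several marker sets also differed between Wt and KO arrays. The mean log2 level of the 10 replication genes was 8.65 to 8.89 on Wt and 8.37 to 8.52 on KO arrays in cycling cells, 7.58 to 7.76 and 7.21 to 7.43 in G1, and 8.61 to 8.62 and 8.31 to 8.35 in S. The 4 macrophage markers had a mean level of 10.10 to 10.28 in Wt S cells and 9.70 to 9.76 in KO S cells, with summed intensities of 22641 to 24365 and 18034 to 18099. In cycling and G1 cells their ranges overlapped between genotypes, at 8.12 to 8.53 and 8.13 to 9.24 in cycling and 7.96 to 10.98 and 8.12 to 10.13 in G1. Other sets that did not overlap in S were the fibroblast markers (12.05 to 12.12 in Wt, 11.80 to 11.82 in KO), the smooth muscle markers (9.29 to 9.37 and 9.01 to 9.04) and the mitosis genes (8.20 to 8.29 and 7.79 to 7.88). In S the same held near the background for the endothelial, epithelial and bone markers, and in G1 for the endothelial ones. Only the adipocyte and cartilage sets overlapped between genotypes in S. The 2 arrays of each S group correlated at 0.9944 or above, so their ranges are narrow and separation there says little. The part of any of these sets in the Loxl2 difference was not tested.

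**Figure D2:**
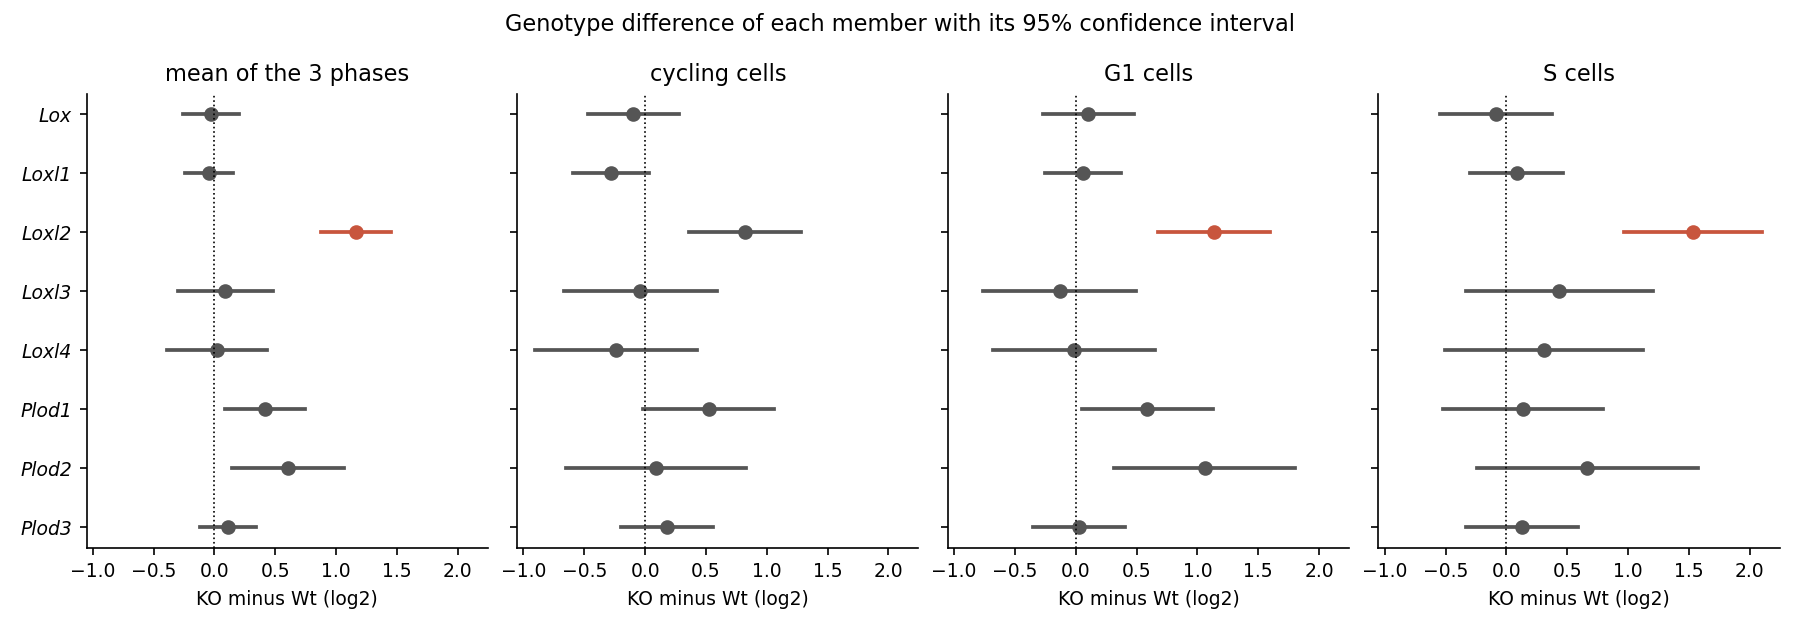
KO minus Wt difference in log2 units (x axis) of each of the 8 members (y axis), averaged over the 3 phases and in each phase, with bars for the 95% confidence interval from limma. Red marks an adjusted p under 0.05, which holds for Loxl2 in the mean (1.16), in G1 (1.14) and in S (1.53).

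Lox, the founding lysyl oxidase and one of the brightest probes on these arrays (place 1 to 51 of 25697 by intensity), did not differ detectably between genotypes. It read 14.80, 14.61 and 14.95 in Wt cycling cells and 14.49, 14.70 and 14.89 in KO. In G1 it read 14.77, 14.62 and 14.46 in Wt and 14.91, 14.54 and 14.71 in KO, and in S 14.87 and 14.95 against 14.82 and 14.82. Wt and KO arrays overlapped in cycling and G1 cells, and in S both KO arrays lay just below both Wt arrays. The mean difference was -0.03 ± 0.11 (95% interval -0.26 to 0.20; adjusted p = 0.971, limma). Its value of 14.95 is the highest that quantile normalization leaves to any probe, so a rise as large as that of Loxl2 could not have appeared here. With median scaling, which sets no such limit, the difference was 0.03 ± 0.16 (adjusted p = 0.999, limma).

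Loxl1, which encodes the oxidase needed for renewal of elastic fibres in the mouse, was not called either. Its mean difference was -0.05 ± 0.09 (95% interval -0.24 to 0.15; adjusted p = 0.930, limma). In cycling cells the KO arrays (13.77, 13.86 and 13.83) lay below all Wt arrays (14.07, 13.97 and 14.25), by 0.28 ± 0.15 (adjusted p = 0.539, limma). In G1 the KO arrays (13.86, 13.93 and 13.85) overlapped the Wt arrays (13.73, 13.90 and 13.82), and the KO array was the higher one in 3 of 3 pairs. The opposite signs of the pairs in the 2 phases did not amount to a called difference of effects (0.34 ± 0.21, adjusted p = 0.537, limma).

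Loxl3 and Loxl4, whose products also carry scavenger receptor domains, gave mean differences of 0.09 ± 0.18 (95% interval -0.30 to 0.48; adjusted p = 0.931, limma) and 0.02 ± 0.19 (-0.39 to 0.43; adjusted p = 0.990, limma). The KO array was higher in 5 of 8 pairs for Loxl3 and in 3 of 8 for Loxl4. Near the background these intervals are wide, and a difference inside them was not detectable at this signal.

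Among the lysyl hydroxylases none was called, while Plod2 and Plod1 were higher in KO in 7 of 8 pairs each. Plod2 encodes the hydroxylase of the telopeptide lysines of collagen, whose loss in humans causes a form of brittle bone disease with joint contractures. Its level was 9.78, 9.63 and 10.86 in Wt cycling cells and 9.87, 10.15 and 10.51 in KO. In G1 it was 9.45, 10.16 and 10.001 in Wt and 11.60, 10.62 and 10.57 in KO, and in S 9.71 and 9.70 in Wt and 10.47 and 10.27 in KO. Groups overlapped in cycling cells and were apart in G1 and S.

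The mean Plod2 difference was 0.61 ± 0.21 (1.52-fold; 95% interval 0.15 to 1.06), which did not pass (adjusted p = 0.201, limma). The highest Plod2 value in G1 and the highest in Wt cycling cells were on KO_G1 replicate 1 and Wt_cycling replicate 3, the 2 arrays that stood apart. Without these arrays the mean difference was 0.63 ± 0.13 and passed (adjusted p = 0.0136, limma), in a fit that called 9.76% of all probes. The G1 difference was 1.06 ± 0.35 (adjusted p = 0.309, limma), and without the 2 arrays 0.73 (adjusted p = 0.145, limma). The pair on KO_G1 replicate 1 differed by 2.15 and the other 7 pairs by -0.34 to 0.76.

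Plod1 encodes the hydroxylase of helical lysines, whose loss in humans causes a kyphoscoliotic form of Ehlers-Danlos syndrome. Its level was 6.72, 6.52 and 7.03 in Wt cycling cells against 6.88, 7.54 and 7.42 in KO, and 7.04, 6.27 and 6.55 in Wt G1 cells against 7.28, 7.38 and 6.98 in KO. In S it was 6.99 and 6.47 in Wt and 6.93 and 6.80 in KO, and the groups overlapped in every phase. The mean difference was 0.42 ± 0.15 (1.33-fold; 95% interval 0.08 to 0.75; adjusted p = 0.237, limma). Plod3, which also encodes a glycosyltransferase that completes the sugar of hydroxylysine, had a mean difference of 0.11 ± 0.11 (95% interval -0.12 to 0.34; adjusted p = 0.790, limma). Its KO arrays lay above its Wt arrays in cycling cells (13.32, 13.30 and 13.42 against 13.10, 13.17 and 13.24) and in S (13.32 and 13.33 against 13.15 and 13.23), and overlapped them in G1.

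Over the 8 members the median of the genotype differences was 0.10, against 0.00462 over all probes tested, and 3 of the 8 (Loxl2, Plod1 and Plod2) had an unadjusted p under 0.05, where 12.8% of all probes did.

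**Figure D3:**
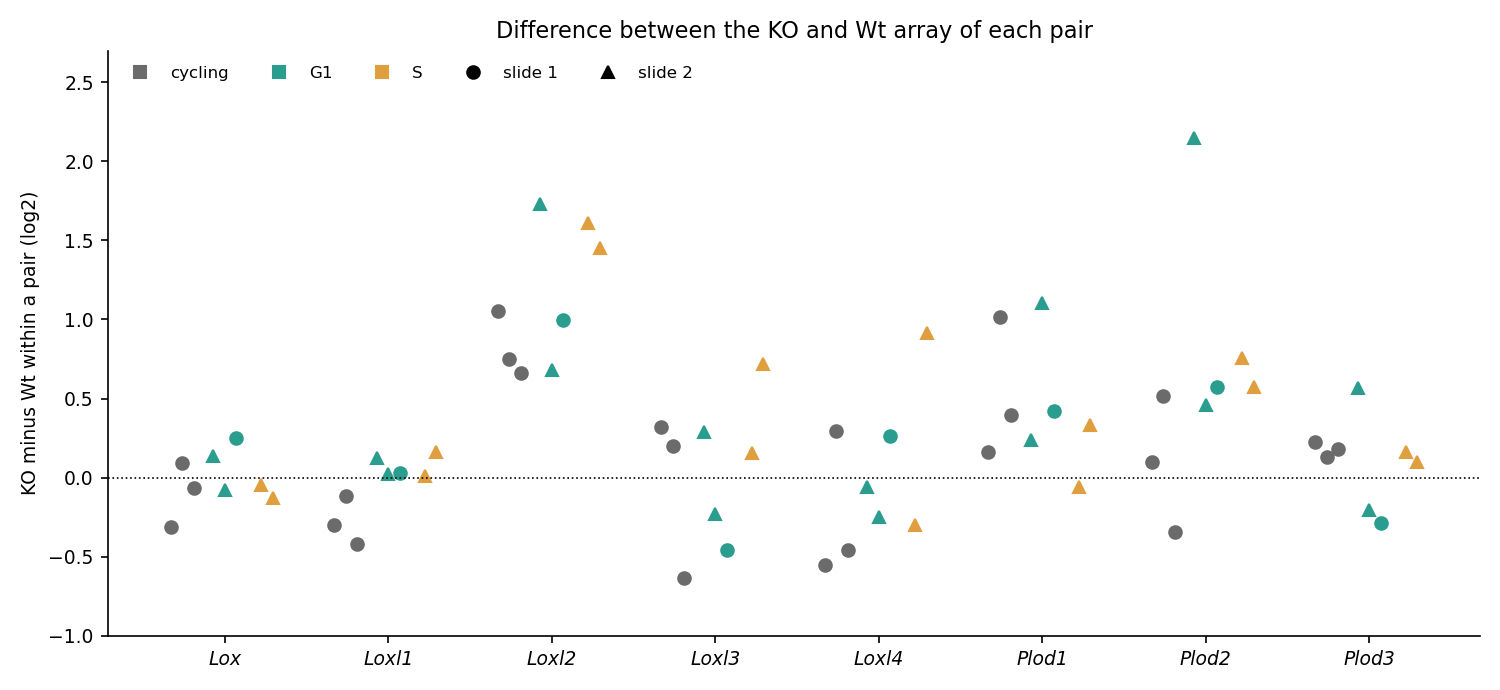
KO minus Wt difference within each of the 8 pairs in log2 units (y axis) for each member (x axis). Colours give the phase and symbols the slide. All 8 Loxl2 values lie above 0, Plod1 and Plod2 have 7 of 8 values above 0, and the Plod2 value of 2.15 comes from the pair with KO_G1 replicate 1.

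The arrest of the cells in G1 was read by comparing G1 with cycling cells over both genotypes. Loxl2 fell by 0.59 ± 0.15 log2 units in G1 (1.51-fold; 95% interval -0.92 to -0.27; adjusted p = 0.0145, limma; 6 G1 and 6 cycling arrays), as the 1 member called of 8, where 19.8% of all probes were called. A share of 1 in 8 is no more than that background. All cycling arrays and only 1 G1 pair lay on slide 1. With slide as a block the difference therefore rests on the 1 Wt and 1 KO G1 array of that slide, and it was -0.48 (adjusted p = 0.226, limma). Slide 1 alone uses the same arrays and also gave -0.48, so it is not a separate check. With so few G1 arrays the lost call cannot show whether the difference holds within the slide. The same limit applies to every value of G1 against cycling given below with slide as a block.

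The 6 group means of Loxl2 ran from Wt S (8.92 ± 0.07, SD, n = 2) through Wt G1 (9.06 ± 0.32, n = 3), Wt cycling (9.82 ± 0.24), KO G1 (10.20 ± 0.25) and KO S (10.45 ± 0.18, n = 2) to KO cycling (10.64 ± 0.24). Neighbours in this order overlapped except Wt G1 and Wt cycling. The lowest KO array, at 9.94 in G1, was below the highest Wt array, at 10.08 in cycling cells.

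Loxl3 and Loxl4 were lower in G1 than in cycling cells by 0.59 ± 0.21 and 0.64 ± 0.22, which did not pass (adjusted p = 0.0601 and 0.0533, limma). Both undetected Loxl3 values and 3 of the 4 undetected Loxl4 values were on G1 arrays. With slide as a block the Loxl3 difference was -1.01 and passed (adjusted p = 0.0337, limma). It rests on the G1 arrays of slide 1, which are those with the undetected Loxl3 values (5.55 in Wt and 5.09 in KO). That pass thus sets readings at background against the cycling arrays. Lox (-0.07), Loxl1 (-0.11), Plod1 (-0.10), Plod2 (0.27) and Plod3 (0.22) had adjusted p of 0.229 or more by limma. Plod3 read 13.22, 13.65 and 13.54 in Wt G1 cells and 13.79, 13.44 and 13.25 in KO G1 cells.

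From G1 to S no member was called by limma, where 11.4% of all probes were, and 2 of the 8 (Loxl3 and Loxl4) had an unadjusted p under 0.05, at the level of the 26.4% of all probes that did. Loxl2 differed by 0.05 ± 0.17 (95% interval -0.31 to 0.42; adjusted p = 0.883, limma). Loxl3 was 0.68 ± 0.23 higher in S (adjusted p = 0.0766, limma) and passed without KO_G1 replicate 1 (0.81, adjusted p = 0.0178, limma), where 23.6% of all probes were called. Loxl4 was 0.56 ± 0.24 higher (adjusted p = 0.158, limma). Of the differences between phases in the genotype effect, none of the 8 was called for G1 against cycling (background 0.00828%) or for S against G1 (background 0%), and none had an unadjusted p under 0.05 in either.

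The proteins on which these enzymes act were examined next, through gene lists chosen by function. Unless a phase is named, differences between KO and Wt in these lists are means over the phases. None of the 7 tested fibrillar collagen genes was called between KO and Wt by limma, and none had an unadjusted p under 0.05. Their differences ran from -0.29 for Col5a3 to 0.65 for Col2a1 (list median -0.05, all probes 0.00462). With each pair as a block 1 of them rose. By phase none was called either, and 1 had an unadjusted p under 0.05 in cycling cells, against 10.4% of all probes. Differences ran from -1.05 to 0.20 in cycling cells, -0.02 to 0.75 in G1 and -0.34 to 1.01 in S. Of the 7 tested genes of elastin and its microfibril scaffold, 3 fell and none rose in KO (list median -0.62). Of all probes tested, 2.06% were called. Eln, the elastin gene, fell by 1.84 ± 0.33 (adjusted p = 0.00854, limma), Ltbp4, a latent TGF-beta binding protein of elastic fibres, by 1.48 ± 0.14 (adjusted p = 9.12e-05, limma), and Mfap4, a microfibril-associated gene, by 1.11 ± 0.18 (adjusted p = 0.00523, limma). The same count of 3 was found with each pair as a block, with slide as a block and with median scaling. Without the 2 arrays that stood apart it was 4, in a fit that called 9.76% of all probes.

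In G1 cells against cycling cells, 6 of these 7 elastin and scaffold genes rose, led by Mfap4 (4.19 ± 0.21) and Eln (3.32 ± 0.37), with Mfap2 at 1.57 ± 0.22 and Fbn2, a fibrillin gene, at 1.27 ± 0.15. Of all probes 19.8% were called in G1. With slide as a block 4 of the 7 rose, where 6.33% of all probes were called. From G1 to S, 4 of 7 fell, among them Eln by 1.39 ± 0.42, where 11.4% of all probes were called. Of the fibrillar collagen genes, Col3a1 (0.80), Col5a2 (0.79) and Col5a3 (0.82) rose in G1, none of them with slide as a block, and Col5a2 and Col5a3 fell from G1 to S. With slide as a block 3 of the elastin and scaffold genes and none of the fibrillar collagen genes fell from G1 to S. Side by side, Eln fell by 1.84 and Loxl2 rose by 1.16 in KO, and Eln rose by 3.32 and Loxl2 fell by 0.59 in G1. That fall of Loxl2 was not called with slide as a block. The other 4 lysyl oxidases were not called in either comparison. Both comparisons use the same arrays, and the relation between the genes was not tested.

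Of 14 tested genes for other steps of collagen lysine and proline modification and folding, none was called between KO and Wt by limma, and 3 had an unadjusted p under 0.05 (list median 0.10). Without the 2 arrays that stood apart, 1 rose and 1 fell. Their differences ran from -0.47 for P3h3 (adjusted p = 0.0851, limma) to 0.39 for P4ha1, a subunit gene of prolyl hydroxylase. In G1 only Tmem38b, an endoplasmic reticulum ion channel gene, fell (by 0.57 ± 0.16). In S against G1, Tmem38b (0.87) and Crtap (0.49) rose, where 11.4% of all probes were called. P3h1 fell by 1.18 at its brightest probe, while its other 2 probes, at -0.35 and -0.37, were not called. Lysyl oxidases require copper, and 6 genes that take it up or deliver it were tested. By limma none of the 6 was called in any of the 8 comparisons. For the mean genotype difference of the 3 phases, no unadjusted p was under 0.05 (range -0.18 to 0.29). The single phases spread wider, from -0.38 to 1.38 in cycling cells, -0.44 to 0.59 in G1 and -0.71 to 0.61 in S. Only Atox1 in cycling cells had an unadjusted p under 0.05 there (1.38 ± 0.62, adjusted p = 0.468, limma).

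Among 11 tested genes of procollagen processing and fibril assembly, Postn and Bmp1 rose and Pcolce fell in KO (list median 0.09). The share called of all probes was 2.06%. Postn encodes periostin, a matrix protein that promotes the activation of lysyl oxidase by Bmp1, and it rose by 1.28 ± 0.29 (adjusted p = 0.0402, limma). Bmp1, the protease that removes the procollagen C-propeptide and the lysyl oxidase propeptide, rose by 0.43 ± 0.10 at its brightest probe (adjusted p = 0.0402, limma), and its other 2 probes, at 0.30 and 0.29, were not called. Pcolce, the enhancer of Bmp1, fell by 0.50 ± 0.11 (adjusted p = 0.0315, limma). With each pair as a block 1 of the 11 rose and 2 fell, and with slide as a block none was called. In G1, 4 of the 11 rose, with Lum at 5.77 ± 0.29, Dpt at 2.23 ± 0.51, Dcn at 2.10 ± 0.24 and Fmod at 0.88 ± 0.24, all genes of small matrix proteins that bind collagen fibrils. Of all probes 19.8% were called there. With slide as a block 2 of the 11 rose, where 6.33% of all probes were called.

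Lox, Loxl2 and Plod2 are known targets of hypoxia-inducible factor, and lysyl oxidases are also induced by TGF-beta, so both responses were read. Any link between these responses and the members was not tested. The hypoxia list shares P4ha1 and P4ha2 with the list of collagen modification. Of 12 tested hypoxia response genes, Vegfa rose by 0.72 ± 0.13 in KO (adjusted p = 0.0091, limma). Slc2a1, a glucose transporter gene, rose by 0.49 ± 0.11 (adjusted p = 0.0444, limma), where 2.06% of all probes were called. An unadjusted p under 0.05 was found for 6 of the 12, against 12.8% of all probes, and the list median was 0.34. With slide as a block or median scaling 1 of the 12 was called. Without the 2 arrays that stood apart 5 rose and 1 fell, where 9.76% of all probes were called. In G1, 4 of the 12 rose, Vegfa (0.95) among them, and Ldha fell by 0.63, where 19.8% of all probes were called. With slide as a block 2 rose and none fell. Of 10 TGF-beta response genes none was called in KO averaged over phases by limma (list median 0.07). The unadjusted p was under 0.05 for 4 of them, against 12.8% of all probes. Tgfbi fell by 1.31 ± 0.24 in KO S cells (adjusted p = 0.0443, limma), where 0.232% of all probes were called. That call was lost with each pair as a block. In G1 cells Tgfbi rose by 2.68 ± 0.14, Tgfb1 rose by 0.63, and Tagln fell by 1.04. Of the 10 genes 2 rose and 2 fell there, where 19.8% of all probes were called. With slide as a block 1 rose and none fell.

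Correlations of log2 levels between members were described over the 16 arrays. The highest correlation between 2 members was 0.63, for Plod2 and Plod3, and it was 0.49 over the 14 arrays without the 2 that stood apart and 0.76 over deviations from the group means. Over the 14 arrays the highest was 0.58, for Loxl2 and Plod2. Loxl1 with Loxl4 gave 0.56, and 0.66 over deviations from the group means. Loxl3 with Loxl4 gave 0.62, Loxl2 with Plod2 0.50 and Lox with Loxl2 -0.12 over the 16 arrays. Among the 8427 other genes tested, the gene most like Loxl2 was Nlk, a kinase gene (r = 0.94 over 16 arrays, 0.95 over 14), followed by St3gal3 (0.90) and Lmod1 (0.90), which took places 7 and 19 over 14 arrays. The closest for Lox was Bbs4 (0.88, and 0.86 over 14 arrays), for Loxl3 Hmgxb4 (0.88 and 0.89), for Loxl4 Senp8 (0.85 and 0.80) and for Plod3 Pgm3 (0.93 and 0.89). For the other members the closest gene moved further down. Over 14 arrays, Pdia6 went from place 1 to 24 for Loxl1 (0.86 and 0.71), P3h2 to 17 for Plod1 (0.71 and 0.69) and Sap130 to 17 for Plod2 (0.93 and 0.83). These are descriptions over arrays that share their normalization, slide and culture, with no test.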

How the data were processed

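Per the submitters' processing notes the arrays were processed in BeadStudio 3.0. The deposited non-normalized file holds, per the file headers, 1 average intensity and 1 detection p-value per probe and array, and the results rest on these intensities. The authors' value table, with linear intensities and a median near 118.2 on every array, served as an alternative. The sources used here name no genome build for the probes, so coordinates and sequences are not printed.

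Background was removed by normexp through neqc of limma 3.58.1 (R 4.3.3), which reads the detection p-values, adds an offset of 16, applies quantile normalization and returns log2 values. A probe was tested if at least 1 group had detection p under 0.01 on all its arrays (12078 of 25697 probes, for 8428 genes). One limma model with 6 group means covered all 16 arrays. Tests were two-sided with Benjamini-Hochberg adjustment over the 12078 probes, and a call is an adjusted p under 0.05. For the mean over phases, replicate number within genotype was a random block (statmod 1.5.0, consensus correlation -0.0106). Arrays lay on 2 slides of 8. The p-values measure the spread between these samples, and the number of arrays limits the precision.

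Same-numbered Wt and KO arrays come from embryos of 1 mother, per the series description. Their deviations from group means correlated at 0.196, 0.189 and 0.388 (cycling), 0.423, 0.403 and 0.357 (G1) and 0.0644 (S). Arrays of different number gave -0.307 to 0.246 (cycling), -0.396 to 0.276 (G1) and -0.0644 (S). For cycling cells, Wt replicate 1 with KO replicate 2 (0.246) and the reverse (0.226) exceeded the values of pairs 1 and 2. These correlations therefore do not single out those 2 pairs. All G1 pairs lay above every other G1 value. The primary fit had no pair term, and a pair block within each phase was an alternative.

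The members and gene lists were chosen with earlier results of these data known. All 8 members are described. Up to 4 called genes of each list and comparison are named by size at the brightest probe, and genes most like a member by Pearson r over 16 arrays.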

Additional observations from a re-analysis of the deposited data

How the results depend on the processing

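The alternatives were median scaling, the authors' value table, other detection filters, replicate blocks, slide as a block or each slide alone, array weights, only the groups compared, leaving out the 2 arrays that stood apart, and leaving out each array in turn. Of 1334 values of single members under an alternative, 1288 stayed called or uncalled as before, 22 gained a call and 24 lost one. No called value changed sign, and 75 of the 1288, all uncalled, did. Most of these values were uncalled in the main fit, so keeping that status says little. All 24 losses were of Loxl2, the only member called in the main fit. It stayed called in 5 of 19 alternatives in G1 and 8 of 16 in S, some of which leave 1 array in a group. Between KO and Wt averaged over phases, the count of 1 member called became 3 with array weights (Loxl2, Plod1 and Plod2) and 2 without the 2 arrays that stood apart (Loxl2 and Plod2), and stayed 1 to 1 on leaving out single arrays. Loxl2 passed in 26 of 26 settings there, at 1.06 to 1.21. In cycling cells array weights gave 1 call in place of 0, and single arrays left out gave 0 to 0. In G1 cells the count fell from 1 to 0 with median scaling, either replicate block, slide as a block, slide 2 alone, only the groups compared and without the 2 arrays, and was 0 to 0 on leaving out single arrays. Slide 1 alone left 1 array in each G1 group, so its count of 0 is no test. In S cells it was 0 with median scaling, either replicate block and slide 2 alone, 2 with array weights and with only the groups compared (Loxl2 and Plod2), and 0 to 0 on leaving out single arrays. For G1 against cycling it was 4 with array weights, 2 without the 2 arrays and 1 to 2 on leaving out single arrays. For S against G1 it was 1 with median scaling, 5 with array weights, 1 without the 2 arrays and 0 to 1 on leaving out single arrays. Array weights also called far more of all probes, 24.6% in the mean, 21.8% in cycling cells, 24.4% in S, and 47.8% (cycling to G1) and 54.6% (G1 to S) between phases, and the fit of the S groups alone called 16.2%. Without the 2 arrays the shares were 9.76%, 34.7% and 35.5% in the mean and the 2 phase comparisons. The cause was not tested. A single slide holds fewer arrays. Median scaling moved the median of all probes to 0.122 in cycling, -0.135 in G1 and 0.205 in S against G1, and the Loxl2 differences there were 1.03, 0.998 and 0.23. With the replicate block on the pair, Loxl2 had adjusted p of 0.00208, 0.159, 0.0735 and 0.0607 (limma) in the mean, cycling, G1 and S comparisons, and it changed no other member's call. Signals near background limit Loxl3 and Loxl4.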
